A study of Mus musculus with 11 samples.

Results

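The 10 genes described here encode enzymes that build and decorate the sugar chains of mucins: *Fut2*, *Gal3st1*, *Gal3st2*, *Gal3st2b*, *Gal3st2c*, *B3gnt6*, *B3gnt7*, *C1galt1*, *C1galt1c1* and *Gcnt3*. They were chosen by name from the 22836 genes of a colon RNA-seq table, with earlier results of the same libraries known, so their differences between groups are given as a description without a test. All 10 were in the table and all 10 passed the filter on low values (10 normalized counts or more on average over the 11 libraries). A normalized count is a read count divided by 1 factor per library, and 1 read was worth 0.913 to 1.10 normalized counts.

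PolyA RNA of whole colon was sequenced from 3 groups of mice. Control mice were *Tfam* fl/fl littermates (3 libraries), with the floxed allele and no Cre. Non-transferred mice were *Tfam* fl/fl *Cd4* Cre (3 libraries), in which Cre under *Cd4* control removes TFAM, a factor that mitochondrial DNA depends on, from CD4 and CD8 T cells. Transferred mice (5 libraries) had the same genotype and received CD4 T cells from 7-week-old Ly5.1 donors, so their own TFAM-deficient T cells remained beside the donor cells. All 3 groups carried the floxed *Tfam* alleles, and mice of the transfer experiment were 10 months old. About 1 cm of frozen colon went into each extraction. The labels number the libraries and do not name animals, so the errors given here measure the spread between these libraries. Replicate numbers are those of the column headers, and transferred replicate 5 has another number in its title.

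Each library held 18214741 to 19178986 reads in genes. *Tfam* itself was at 977 to 1083 normalized counts in controls, 1040.3 to 1102 in non-transferred and 865 to 1090.5 in transferred libraries, and a deletion restricted to T cells cannot be checked in whole tissue. Colon epithelium was present in every library, with the summed level of 14 epithelial markers (led by *Krt8* and *Lgals4*) at 334047 to 409534 in controls, 384085 to 490914 in non-transferred and 339766 to 472843 in transferred colon. Other tissue layers differed: 10 of 10 smooth muscle markers were called lower and 11 of 12 leukocyte markers called higher in non-transferred than in control colon (limma across all genes, adjusted p under 0.05). The smooth muscle sum (led by *Myh11* and *Acta2*) was 230926 to 289534 in controls, 33451 to 48604 in non-transferred and 100457 to 162536 in transferred libraries, and the leukocyte sum (led by *Cd74* and *Jchain*) was 8529 to 12794, 89407 to 97211 and 31283 to 59192. No leukocyte or smooth muscle marker was at 0 in all libraries. Of 6 distal HOX genes, which mark position along the colon, 5 were called lower in non-transferred colon, as the smooth muscle markers were. Whether the position sampled differed was not tested. The part of these shifts in the results below was not tested, and in bulk tissue fewer cells of a type and less RNA per cell cannot be told apart. Transferred replicate 5 stood apart from the other transferred libraries, with *Muc2* at 44381 normalized counts against 239014 to 453872 in the other 4. Controls spread widely too, with *Muc2* at 240389, 83461 and 64129 in controls 1, 2 and 3. Values without transferred replicate 5 are given beside the genes it moved most.

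Mucins carry dense O-linked glycans that start with N-acetylgalactosamine (GalNAc) on serine or threonine. C1GALT1, which needs its chaperone COSMC (*C1galt1c1*), adds galactose to make core 1, and B3GNT6 adds N-acetylglucosamine to make core 3, while GCNT3 branches these into core 2 and core 4. Chains are extended, and ends are then fucosylated (FUT2), sialylated or sulfated, with galactose 3-O-sulfotransferases (GAL3ST) placing sulfate on galactose. In the colon such decoration shapes the mucus layer that separates bacteria from the epithelium.

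The *Gal3st2* paralogs stood furthest apart in their values, and their sequences decide how well reads can be assigned. *Gal3st2* (chr1:93789028-93804219), *Gal3st2b* (chr1:93846033-93870372) and *Gal3st2c* (chr1:93918231-93944869) lie side by side on the plus strand of GRCm39. Their coding sequences are 1188 bases each. *Gal3st2* and *Gal3st2b* were identical at 99.5% of coding bases, and *Gal3st2c* was 98.0% identical to either. The stretch of 90 coding bases within 1 exon (coding positions 964 to 1053) where the 3 genes differ most is shown here because it holds the bases that tell *Gal3st2c* from its neighbours. Capitals mark the 8 positions of the window, of 27 in the whole coding sequence, at which the 3 genes are not all alike. The windows lie at chr1:93802584-93802673, chr1:93868734-93868823 and chr1:93937020-93937109 (GRCm39, plus strand, GENCODE transcripts).
Gal3st2: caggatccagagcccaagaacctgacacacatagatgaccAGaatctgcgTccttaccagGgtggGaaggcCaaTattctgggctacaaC
Gal3st2b: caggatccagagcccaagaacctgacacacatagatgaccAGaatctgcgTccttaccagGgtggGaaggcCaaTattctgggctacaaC
Gal3st2c: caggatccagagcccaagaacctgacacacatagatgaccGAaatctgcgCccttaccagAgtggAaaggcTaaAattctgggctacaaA
In this window *Gal3st2* and *Gal3st2b* do not differ from each other, and *Gal3st2c* differs from both at all 8 positions.

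Over whole transcripts, 92.1% of the 31-base words of *Gal3st2b* and 76.6% of those of *Gal3st2* occur in another gene, against 17.2% for *Gal3st2c*. The values of *Gal3st2* and *Gal3st2b* are therefore uncertain, since how reads matching several genes were counted is not given in the sources used here. Most of the annotated sequence of *Gal3st2c* is its own, but its exons cover 9667 bases, against 3066 for *Gal3st2* and 2748 for *Gal3st2b*. Its coding sequence is 98.0% identical to theirs, and how far this affects its reads was not tested. For the other 7 enzymes the share was at most 4.31%.

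The promoters of the 3 paralogs, from 250 bases before to 50 after the annotated start, had no exact 12-base word in common. Shared words are another measure than the aligned identity given for the coding sequences. The promoters are shown because *Gal3st2c* differed widely between groups while *Gal3st2* and *Gal3st2b* differed far less. Any part of the promoters in this was not tested. Each line holds the 150 bases before the annotated start, 5′ to 3′ on the plus strand (RefSeq, GRCm38.p6), at chr1:93861194-93861343, chr1:93918287-93918436 and chr1:93990355-93990504. No bases are capitalised.
Gal3st2: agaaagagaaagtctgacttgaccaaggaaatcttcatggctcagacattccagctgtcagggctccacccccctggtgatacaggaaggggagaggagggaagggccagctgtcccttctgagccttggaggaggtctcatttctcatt
Gal3st2b: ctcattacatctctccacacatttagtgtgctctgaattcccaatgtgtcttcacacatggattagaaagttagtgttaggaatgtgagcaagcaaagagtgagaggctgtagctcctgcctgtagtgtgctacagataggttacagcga
Gal3st2c: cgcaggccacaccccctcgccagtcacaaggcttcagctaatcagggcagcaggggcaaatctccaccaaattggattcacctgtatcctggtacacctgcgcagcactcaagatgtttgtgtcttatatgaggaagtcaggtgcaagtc
Promoter windows were also held for *C1galt1*, *B3gnt7* and *Gal3st1*, so 6 of the 10 genes matched that table, and *Fut2*, *Gcnt3*, *B3gnt6* and *C1galt1c1* had none there.

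The values of the 10 enzymes in every library are plotted by group. Comparing non-transferred with control colon, *B3gnt7*, *Fut2*, *C1galt1* and *C1galt1c1* were called higher and *Gal3st2c*, *Gal3st1* and *Gcnt3* called lower (limma across 16781 genes, adjusted p under 0.05). These 7 of 10 stand beside a background of 45.5% of all genes tested called in that comparison, 22.7% higher and 22.9% lower. The genes were chosen with these results known. The calls here and in the other comparisons are thus a description and no test, and nothing is read from their count. Libraries of both groups did not overlap for 8 of the 10, against 56.9% of all genes tested. Between transferred and non-transferred colon, *Gcnt3*, *Gal3st1* and *Gal3st2c* were called higher and *C1galt1*, *B3gnt7* and *Fut2* lower, 6 of 10 beside a background of 31.2% (17% higher, 14.2% lower). Under scaling to the epithelial markers this split became 3 higher and 1 lower, while over all genes 2860 higher and 2380 lower became 3235 and 755. Here too libraries did not overlap for 6 genes, against 34.2% of all genes. Between transferred and control colon *B3gnt7* and *Fut2* were called higher, 2 of 10 beside a background of 1.6% (1.14% higher), and 3 genes did not overlap, against 11.6%. The 2 members called became 1 with edgeR, 1 with epithelial scaling and 3 with DESeq2. Over all genes the 268 called became 177, 50 and 1236 in the same order. The comparisons share libraries, so opposite signs in the first 2 are not independent of each other.

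**Figure D1:**
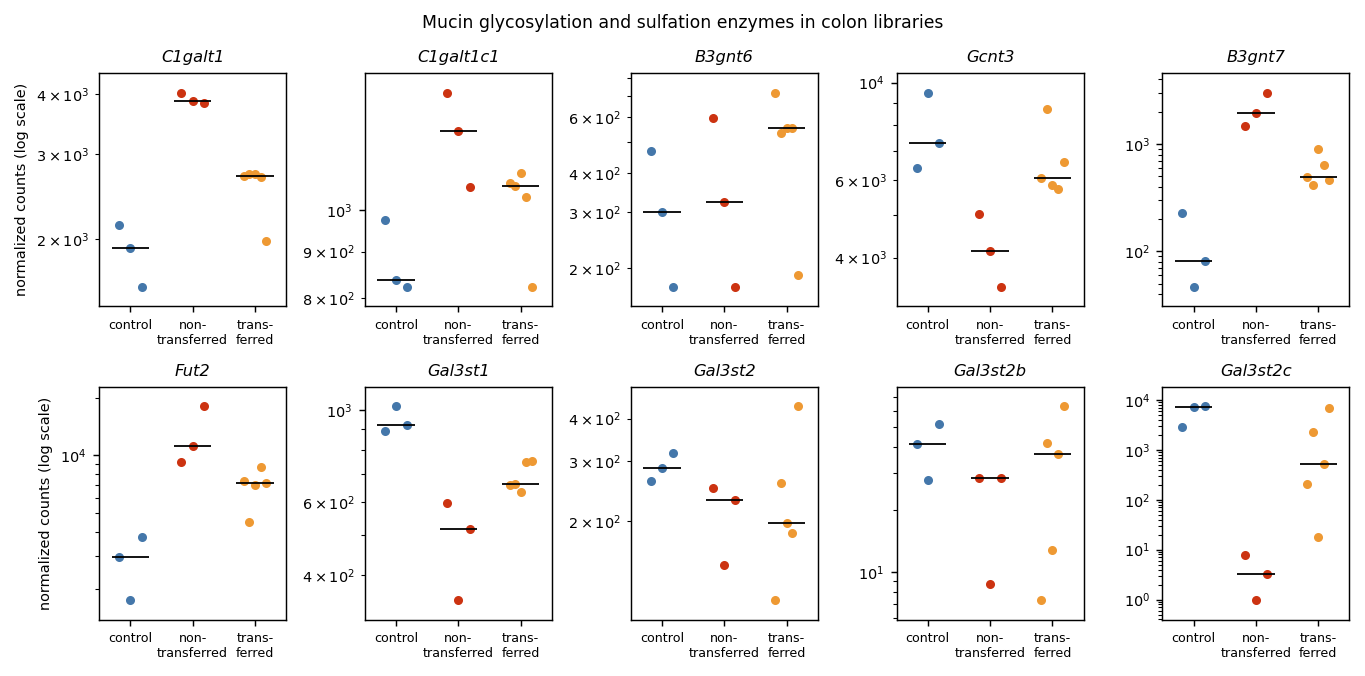
Normalized counts (log scale, a separate range in each panel) of the 10 enzymes in the colon of control (3 libraries), non-transferred (3) and transferred (5) mice, 1 point per library and a line at each group's median. *B3gnt7* was lowest in controls (46.7 to 228) and highest in non-transferred colon (1470.4 to 3015), and *Gal3st2c* was below 10 normalized counts in all 3 non-transferred libraries.

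Core 1 synthesis was represented by *C1galt1* and *C1galt1c1*. *C1galt1* (chr6:7844634-7875687) was at 2136, 1911 and 1589 normalized counts in controls 1, 2 and 3, at 4034, 3872 and 3835 in non-transferred replicates 1, 3 and 4, and at 2702, 2730.3, 2737, 2694 and 1981 in transferred replicates 1 to 5. Non-transferred colon was thus above every other library, and all transferred libraries but replicate 5 lay between the other groups without touching them. The log2 fold change, on the scale of log2(normalized count + 1) used throughout, was 1.07 ± 0.14 (SE, 3 against 3 libraries) for non-transferred against control, or 2.10-fold. It was -0.62 ± 0.13 (5 against 3) for transferred against non-transferred and 0.45 ± 0.13 (5 against 3) for transferred against control. Replicate 5 was the only transferred library within the control range.

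*C1galt1c1* (chrX:37719034-37724025), the chaperone without which C1GALT1 does not fold, differed less. Its normalized counts were 976, 838 and 822 in controls, 1348, 1223 and 1061 in non-transferred and 1072, 1063, 1099.6, 1034 and 822 in transferred colon. All non-transferred libraries were above all controls, and transferred libraries overlapped both. The log2 fold changes were 0.46 ± 0.13 for non-transferred against control, -0.25 ± 0.12 for transferred against non-transferred and 0.21 ± 0.12 for transferred against control. When libraries were scaled to the epithelial markers instead, the first was 0.29 and the second -0.08.

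The other way to start a chain, core 3, and the branching gene *Gcnt3* went differently. *B3gnt6* (chr7:97841624-97848728), the core 3 enzyme of the colon, was at 469, 301 and 174 normalized counts in controls, at 596, 323 and 174 in non-transferred and at 718, 535, 553, 556 and 191 in transferred colon. The 3 groups overlapped over most of their range, and the spread within a group was as wide as any difference between groups. Its log2 fold changes were 0.15 ± 0.53, 0.54 ± 0.48 and 0.69 ± 0.48 in the same order of comparisons. Leaving out 1 library at a time moved the first from -0.29 to 0.59, so its sign depended on single libraries. Without transferred replicate 5, transferred colon was 0.86 above non-transferred and 1.01 above control. An antisense lncRNA, Gm16938, covers all 7105 bases of the gene, and without the counter's strand setting reads of the 2 genes cannot be told apart.

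*Gcnt3* (chr9:69938778-69945370), which makes the core 2 and core 4 branches, had the highest level per kb of exon of the 10 in controls. It was at 6406, 9483 and 7283 normalized counts in controls, 5020.1, 4139 and 3432 in non-transferred and 6053, 8691, 5855, 5738 and 6581 in transferred colon. The non-transferred libraries were below all others, and transferred and control libraries overlapped. The log2 fold changes were -0.88 ± 0.19, 0.65 ± 0.17 and -0.23 ± 0.17. So in non-transferred colon the core 1 enzyme was higher and *Gcnt3* lower, while *B3gnt6* overlapped between groups. *Gcnt1*, *Gcnt2* and *Gcnt4*, not among the 10, lay the other way from *Gcnt3*. *Gcnt1* was at 110, 46.7 and 35.3 normalized counts in controls and 345, 356 and 586 in non-transferred colon. *Gcnt2* was at 395, 389 and 472 in controls and 607, 1025 and 959 in non-transferred colon, and *Gcnt4* is described below.

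*B3gnt7* (chr1:86230554-86235027) extends chains with N-acetylglucosamine, including sulfated ones, and had the widest upward difference of the 10 in non-transferred against control colon. In controls it was at 228, 46.7 and 81.6 normalized counts, in non-transferred colon at 1470.4, 1968 and 3015 and in transferred colon at 497, 419.5, 909, 638 and 463. The 3 groups did not overlap: the lowest non-transferred library was 6.45-fold above the highest control, and the transferred libraries filled the gap between. The log2 fold change was 4.41 ± 0.48 (21.3-fold) for non-transferred against control, -1.87 ± 0.43 for transferred against non-transferred and 2.54 ± 0.43 (5.83-fold) for transferred against control. Without control replicate 2, the lowest, or control replicate 1, the highest, the first comparison ranged from 3.90 to 5.04. An antisense lncRNA, Gm28626, overlaps 1101 bases of the gene.

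*Fut2* (chr7:45298015-45315818) encodes the fucosyltransferase that adds the terminal alpha-1,2 fucose of secreted glycans, which gut bacteria use as an attachment site and as food. Its normalized counts were 2945, 1754 and 3742 in controls, 9192, 11132 and 18119.6 in non-transferred and 7342, 4507, 7026, 8746 and 7159 in transferred colon. Again no groups overlapped, with all 5 transferred libraries above all controls and below all non-transferred ones, the last by a narrow margin of 1.05-fold between replicates. The log2 fold changes were 2.19 ± 0.32 (4.58-fold), -0.85 ± 0.28 and 1.34 ± 0.28 (2.53-fold). *Fut2* shares 3.80% of its 31-base words with its neighbour *Sec1*, described among the fucose genes below.

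**Figure D2:**
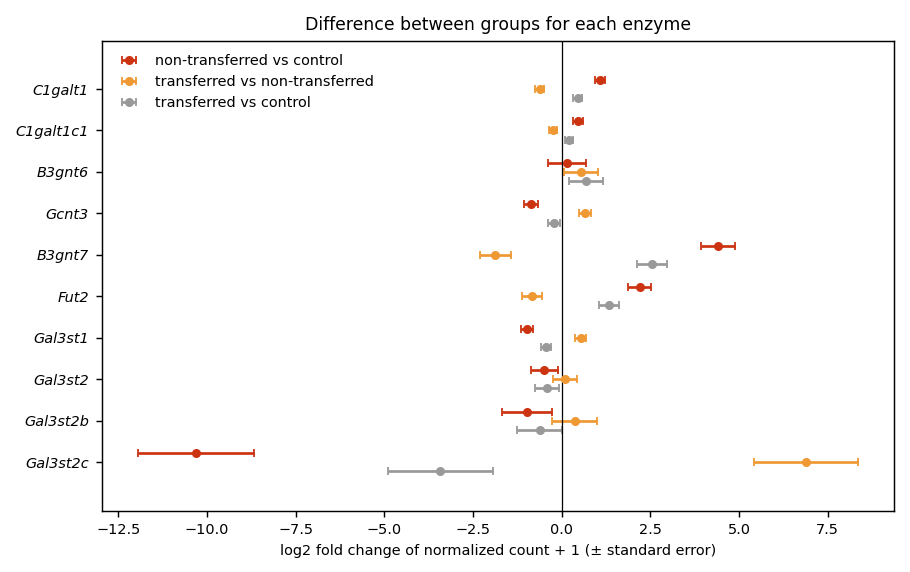
Log2 fold change of normalized count + 1 for the 10 enzymes in 3 comparisons (points), with bars for the standard error from the fit over all 11 libraries. *B3gnt7* and *Fut2* lay above 0 against control in non-transferred and transferred colon, and *Gal3st2c* had the widest span, from -10.32 to 6.89.

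The 4 sulfotransferase genes all had negative log2 fold changes in non-transferred against control colon, of very unequal size. *Gal3st1* (chr11:3933616-3951296), known for making sulfatide on galactosylceramide, was at 889, 1022 and 921 normalized counts in controls, 598, 349 and 517 in non-transferred and 661, 663, 636, 751 and 755 in transferred colon. All 3 groups were apart, and transferred libraries lay in the gap. The log2 fold changes were -0.98 ± 0.17, 0.54 ± 0.15 and -0.45 ± 0.15, and the second was 0.31 without non-transferred replicate 3.

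*Gal3st2c* showed the widest difference of the 10. In controls it was at 2863, 7098 and 7581 normalized counts. In non-transferred colon it was at 7.83, 0.969 and 3.29, which is 12 reads over all 3 libraries, against 17055 reads in the 3 controls. The lowest control was 366-fold above the highest non-transferred library. In transferred colon it was at 203, 2295, 17.7, 532 and 6764, so every transferred library was above every non-transferred one, and replicate 5 reached the control range. Transferred replicate 3, at 17.7, was 2.26-fold above the highest non-transferred library and 382-fold below transferred replicate 5.

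The log2 fold changes of *Gal3st2c* were -10.32 ± 1.64 for non-transferred against control, 6.89 ± 1.47 for transferred against non-transferred and -3.42 ± 1.47 for transferred against control. With so few reads in the low group the size depended on the pseudocount, and with 10 in place of 1 the first was -8.61 and the second 5.32. Without transferred replicate 5, transferred colon was at 5.96 against non-transferred and -4.36 against control, and without replicate 3 at 8.08 and -2.23. On means of normalized counts, which the highest library dominates, transferred colon held 1962 ± 2832 (SD, n = 5) against 5847 ± 2596 in controls (n = 3) and 4.03 ± 3.49 in non-transferred colon (n = 3). A same-strand lncRNA, Gm71302, overlaps the first 2976 bases of the gene.

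The other 2 paralogs did not follow that course. *Gal3st2* was at 262, 286 and 316 normalized counts in controls, 251, 148 and 230.0 in non-transferred and 117, 259, 198, 184 and 436 in transferred colon. Controls and non-transferred libraries did not overlap, though only by 1.04-fold, and transferred libraries spanned both. Its log2 fold changes were -0.49 ± 0.38, 0.08 ± 0.34 and -0.40 ± 0.34. Single libraries decided them: the first was -0.26 without non-transferred replicate 3, the second was -0.17 without transferred replicate 5, -0.15 without non-transferred replicate 3 and 0.31 without transferred replicate 1, and the last ran from -0.66 without transferred replicate 5 to -0.18 without replicate 1.

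*Gal3st2b*, the lowest of the family, was at 41.4, 27.8 and 51.8 normalized counts in controls, 28.4, 8.72 and 28.5 in non-transferred and 7.30, 42.3, 12.8, 37.2 and 63.5 in transferred colon. Groups overlapped in every comparison, with log2 fold changes of -0.98 ± 0.71, 0.36 ± 0.64 and -0.62 ± 0.64. Without non-transferred replicate 3 the first was -0.45 and the second -0.17, and without transferred replicate 5 the second was 0.04 and the last -0.95. Because 92.1% of its 31-base words occur elsewhere, part of the reads of its own transcripts may have been left uncounted or given to *Gal3st2*.

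Per kb of exon, the 4 genes can be set side by side within a library. *Gal3st2c* made up 62.1%, 79.0% and 79.3% of their summed level in controls, 0.552%, 0.121% and 0.257% in non-transferred libraries, and 17.3%, 59.8%, 1.43%, 28.0% and 75.0% in transferred replicates 1 to 5. *Gal3st2* was the largest of the 4 in all non-transferred libraries, at 55.7% to 58.2%. The sum of the 4 genes itself was 477 to 989 normalized counts per kb in controls, 83.1 to 147 in non-transferred and 121 to 933 in transferred colon. Exon length here is the union of all annotated exons of a gene, so a level per kb is low for a gene with long rarely used exons.

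**Figure D3:**
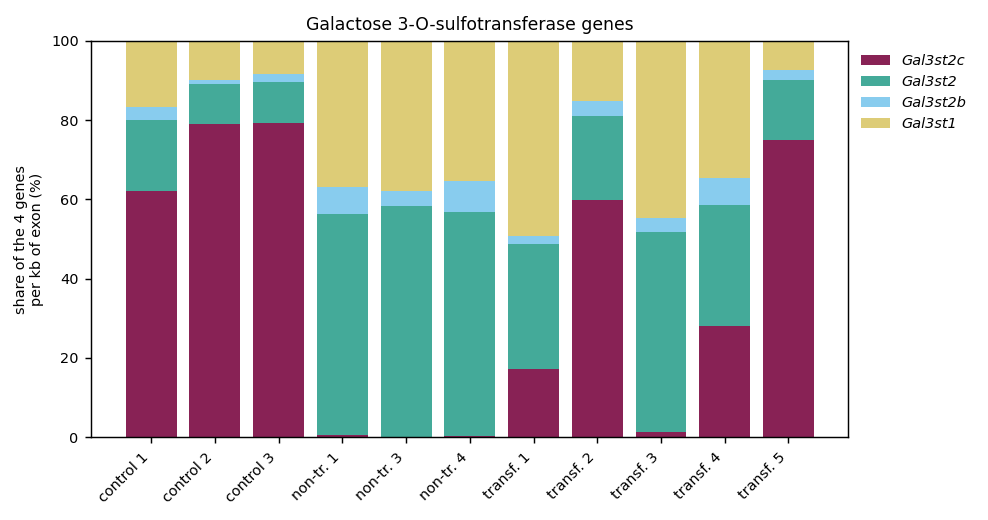
Share (%) of each galactose 3-O-sulfotransferase gene in the summed level of the 4 genes per kb of exon, 1 bar per library, with replicates numbered as in the column headers. *Gal3st2c* took 62.1% to 79.3% in controls, under 1% in the 3 non-transferred libraries and 1.43% to 75.0% in transferred colon.

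Levels per kb also gave the order of the 10 enzymes within each group. In controls *Gcnt3* came first at 1796 ± 368 normalized counts per kb (SD, n = 3), followed by *Gal3st2c* at 605 ± 269 and *Fut2* at 506 ± 180.0, a pair that does not differ beyond its spread. In non-transferred colon *Fut2* came first at 2306 ± 845, then *Gcnt3* at 976 ± 185 and *B3gnt7* at 520 ± 191, and *Gal3st2c* was last at 0.417 ± 0.361. *B3gnt7* and *C1galt1c1*, next at 477 ± 56.7, were within their spread. In transferred colon *Gcnt3* (1531 ± 284, n = 5) and *Fut2* (1252 ± 276) led within their spread of each other, and *Gal3st2c* had rank 6 at 203 ± 293. Without transferred replicate 5 it was at 78.8 ± 108 (n = 4) and had rank 7, below *B3gnt7* at 149 ± 52.0. So *B3gnt7* stood at rank 9 in controls, rank 3 in non-transferred and rank 7 in transferred colon, or rank 6 there without replicate 5.

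Beyond the 10 enzymes, 91 genes of glycan synthesis and its supply in 6 roles were in the table and 84 passed the filter. They include genes that act on other chains than mucin O-glycans, such as *B3gnt5* on lipids. For the 84 the adjusted p of limma over all genes is given, although the lists too were drawn up with earlier results known. In non-transferred against control colon 45 of the 84 were called, 29 higher and 16 lower, which is 53.6% against 45.5% of all genes, with a median log2 fold change of 0.26 against 0.02 over all genes tested. Between transferred and non-transferred colon 26 were called (12 higher and 14 lower, beside 31.2% of all genes), with a median of -0.07 against -0.02. Between transferred and control colon 4 were called, all higher: *Galnt3*, *B3galt5*, *Sec1* and *Gmds* (4.76% against 1.6%), with a median of 0.18 against -0.01. That last count is unstable, from 1 to 17 under the other settings tried. Under scaling to the epithelial markers the first count became 17 higher and 16 lower and the second 15 higher and 6 lower.

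GalNAc transfer onto serine and threonine, the step before the members act, had 3 of 16 genes higher and 4 lower in non-transferred colon. *Galnt3*, a GalNAc transferase, was at 830.1 to 961 normalized counts in controls, 1899 to 2220.4 in non-transferred and 1166 to 1343 in transferred colon. It rose by 1.16 ± 0.10 on the log2 scale (limma, adjusted p 1.15e-05), was lower again in transferred than in non-transferred colon (-0.65 ± 0.09, adjusted p 0.000435) and was above control by 0.51 ± 0.09 (adjusted p 0.0269). The last call was lost with epithelial scaling (adjusted p 0.113), without any 1 of the controls (up to 0.175 without replicate 2) and without transferred replicate 1, 3 or 4. *Galnt17*, *Galnt16* and *Galnt18* fell, with log2 fold changes of -2.23 ± 0.22, -2.09 ± 0.25 and -1.79 ± 0.24 (adjusted p at most 0.00016), and these 3 rose in transferred against non-transferred colon by 1.15 to 1.41.

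Core, branching and extension genes other than the members had 7 of 22 higher and 4 lower in non-transferred colon. *B3galt5*, which adds galactose to chain ends, was at 4183, 1209.8 and 2603 normalized counts in controls, 16379.9, 12832 and 19133 in non-transferred and 10462, 10222, 12003, 14031 and 12362 in transferred colon. It rose by 2.75 ± 0.34 (limma, adjusted p 0.000116). In transferred colon it was still 2.31 ± 0.31 above control (adjusted p 0.0101), and its difference from non-transferred colon was -0.44 ± 0.31 (adjusted p 0.300). *B3gnt5*, which starts lacto-series chains on lipids, rose by 2.75 ± 0.31 (adjusted p 6.47e-05) and fell by 1.99 in transferred against non-transferred colon (adjusted p 0.000614). *Gcnt4*, a core 2 branching enzyme like *Gcnt3*, rose by 1.76 ± 0.25 (adjusted p 0.000220), opposite in sign to the log2 fold change of *Gcnt3*. *B4galt2* fell, at -1.84 ± 0.22 (adjusted p 0.000101).

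Fucose genes other than *Fut2* had 3 of 8 higher and none lower in non-transferred colon. *Gmds*, the first enzyme of GDP-fucose synthesis, was at 5221, 4233 and 4216 normalized counts in controls, 8589, 8974 and 10216 in non-transferred and 6907, 5675, 6313, 6816 and 6250.0 in transferred colon. It rose by 1.03 ± 0.12 (limma, adjusted p 7.52e-05), fell by 0.53 in transferred against non-transferred colon (adjusted p 0.00364) and was 0.49 ± 0.11 above control (adjusted p 0.0469). The last call was lost with edgeR (adjusted p 0.0581), with epithelial scaling (0.181) and without most single libraries, up to 0.251 without control replicate 2. Its groups were ordered as those of *Fut2*, without overlap. *Sec1*, the neighbour of *Fut2* on chromosome 7, rose by 3.29 ± 0.55 from 1.99 to 10.4 normalized counts in controls to 30.3 to 81.0 in non-transferred colon (adjusted p 0.000630), and its call against control in transferred colon (2.20 ± 0.49, adjusted p 0.0488) was lost under most other settings. *Fut4*, an alpha-1,3 fucosyltransferase, rose by 1.33 ± 0.36 (adjusted p 0.0102), a call lost with epithelial scaling (limma, adjusted p 0.0571).

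Of sialic acid genes, 6 of 16 were higher and 3 lower in non-transferred colon. *Gne* and *Cmas*, which make and activate sialic acid, rose by 1.13 ± 0.19 (limma, adjusted p 0.000703) and 0.66 ± 0.11 (adjusted p 0.000712). *St3gal1* and *St3gal2*, which put sialic acid on the galactose of core 1, fell, at -1.69 ± 0.24 (adjusted p 0.000220) and -1.62 ± 0.16 (adjusted p 2.82e-05). Both were higher in transferred than in non-transferred colon, by 1.39 ± 0.21 and 1.01 ± 0.14. *C1galt1*, whose product they modify, lay in the opposite direction in both comparisons. Sugar nucleotide supply had 6 of 12 genes higher and 2 lower. Among the higher were *Gmppb*, which makes GDP-mannose, at 1.37 ± 0.17 (limma, adjusted p 0.000130), *Slc35a3* (0.71 ± 0.10, the transporter of UDP-N-acetylglucosamine) and *Pgm3* (0.48 ± 0.11). The call of *Pgm3* was lost with epithelial scaling (limma, adjusted p 0.269) and under the study's threshold, which asks for a log2 fold change beyond 0.6. Among the lower was *Galk1*, the galactose kinase, at -0.82 ± 0.16 (limma, adjusted p 0.00170).

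**Figure D4:**
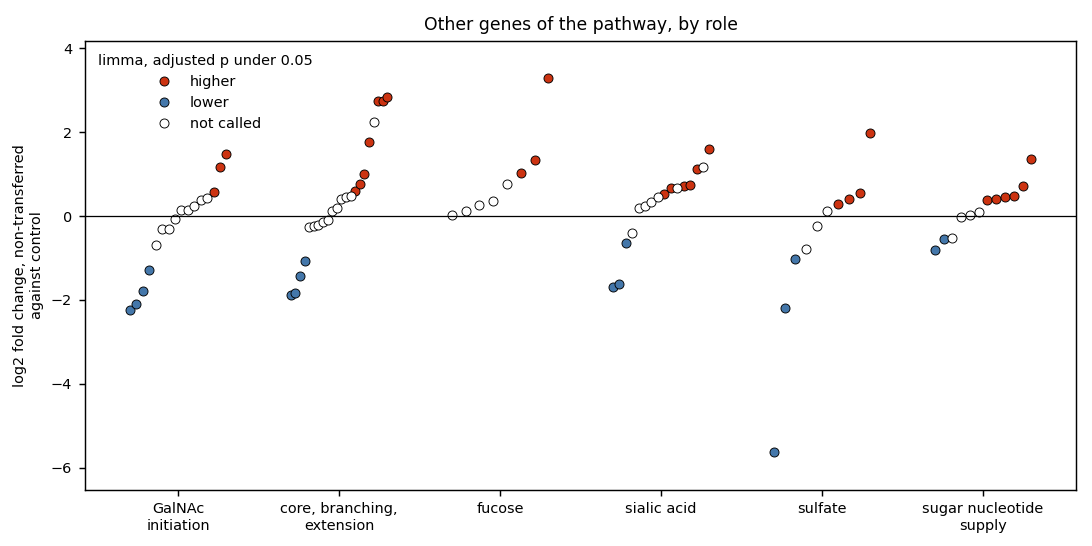
Log2 fold change of non-transferred against control colon for the 84 other pathway genes tested, 1 point per gene, grouped by role and ordered within it. Filled points were called by limma (red higher, blue lower, adjusted p under 0.05), and open points were not. The lowest point is *Slc26a1* in the sulfate group, at -5.63, and no fucose gene was called lower.

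Sulfate supply bears on the sulfotransferases, because the sulfate donor PAPS is made from sulfate that transporters bring into the cell. In this role 4 of 10 genes were higher and 3 lower in non-transferred colon. *Papss1*, one of the PAPS synthases, was at 2891, 2864 and 2405 normalized counts in controls, 1619, 1131 and 1295 in non-transferred and 2426, 3011, 2676, 2540.1 and 2509 in transferred colon. It fell by 1.02 (SE 0.14; limma, adjusted p 0.000164), rose in transferred against non-transferred colon (0.98 ± 0.12, adjusted p 0.000308) and differed from control by -0.05 ± 0.12 (adjusted p 0.864). *Slc26a1*, a sulfate transporter, was at 326, 376 and 1074 in controls, 23.5, 4.84 and 6.57 in non-transferred and 63.9, 249, 12.8, 184 and 1097 in transferred colon. It fell, at -5.63 ± 1.24 (adjusted p 0.00336), and rose in transferred colon by 3.72 ± 1.11 (adjusted p 0.0249, but 0.100 without non-transferred replicate 3, 0.0878 without non-transferred replicate 4 and 0.0523 without transferred replicate 2).

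*Chst4*, which sulfates N-acetylglucosamine rather than galactose, went the other way from the *Gal3st* genes. It rose by 1.99 ± 0.45 in non-transferred colon (limma, adjusted p 0.00419). The fall in transferred colon, -1.15 ± 0.41, had an adjusted p of 0.0499 (limma), a call lost under most other settings. The adjusted p was 0.0504 with a pseudocount of 0.5 and 0.234 without non-transferred replicate 4. *Bpnt2*, which clears a by-product of sulfation, rose by 0.54 ± 0.12 (adjusted p 0.00287). That call was lost with epithelial scaling (limma, adjusted p 0.147) and under the study's threshold.

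Among transferred libraries, *Gal3st2c* was ordered 3, 1, 4, 2 and 5 from lowest to highest. *Papss2*, the most abundant PAPS synthase gene here, was at 8080.3, 14340.5, 7077, 11530.4 and 35518 normalized counts in transferred replicates 1 to 5 and had that same order. *Papss2* fell in non-transferred colon, at -2.20 ± 0.51 (limma, adjusted p 0.00464), from 16057 to 36192 in controls to 4032 to 6911, and its difference between transferred and non-transferred colon was 1.22 ± 0.46 (adjusted p 0.0621). The order also held for *Slc26a1*, for *Slc26a3* and *Aqp8* (chloride exchanger and water channel of surface colonocytes) and for the transmembrane mucin gene *Muc16*. These genes, other than *Slc26a1*, were chosen after their values were seen, and the order did not hold for the sulfate transporter gene *Slc26a2* (1, 3, 4, 2 and 5) or for other colonocyte genes, with *Car1* ordered 4, 3, 1, 2 and 5, *Car4* highest in replicate 2 and *Slc9a3* lowest in replicate 5. *Muc2*, the secreted goblet cell mucin that these enzymes modify, ran nearly opposite, with replicate 5 lowest and replicate 1 highest. *B3gnt6* also had replicate 1 highest and replicate 5 lowest, and *Fut2* and *B3gnt7* had replicate 2 lowest.

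**Figure D5:**
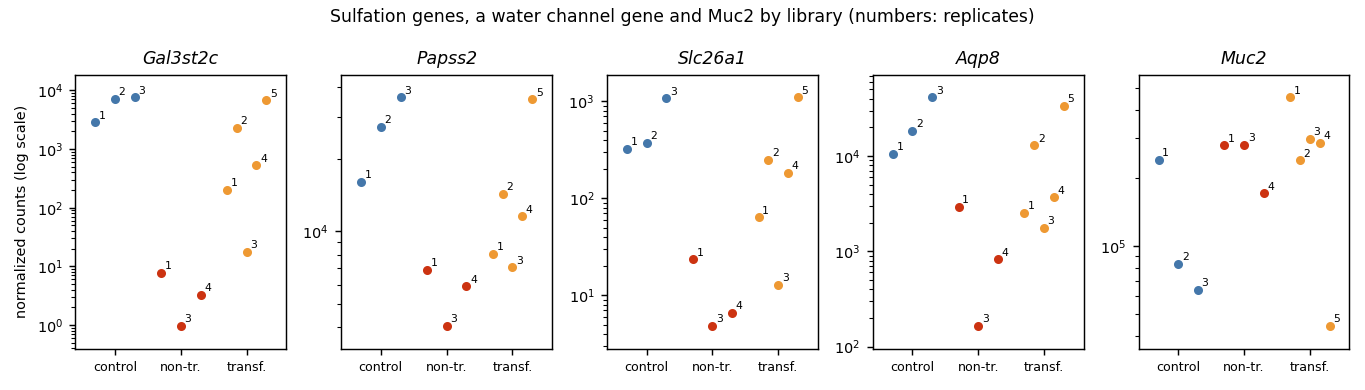
Normalized counts (log scale, a separate range in each panel) of *Gal3st2c*, *Papss2*, *Slc26a1*, *Aqp8* and *Muc2* in control, non-transferred and transferred (non-tr. and transf.) colon, 1 numbered point per library. In the first 4 panels transferred replicate 3 is the lowest and replicate 5 the highest of the transferred libraries, and for *Muc2* replicate 5 is the lowest of all, at 44381.

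Markers of the cells that could hold these enzymes are given beside those values. Of 9 markers of absorptive colonocytes (led by *Car1* and *Guca2a*) 4 were called higher and 5 lower in non-transferred against control colon, and their summed level was 346139 to 576802 in controls, 70129 to 145476 in non-transferred and 193845 to 598237 in transferred colon. Of 16 goblet cell markers (led by *Muc2* and *Fcgbp*) 3 were called higher and 1 lower in non-transferred against control colon. Their sums overlapped, at 190788 to 411517 in controls, 320979 to 461915 in non-transferred and 149026 to 621106 in transferred colon. *Muc2* itself differed by 1.13 ± 0.75 on the log2 scale between non-transferred and control colon (limma, adjusted p 0.245). No marker of either list was at 0 in all libraries. Their part in the values of the 10 enzymes was not tested.

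Protein-coding genes most like each enzyme over the 11 libraries were found by Pearson correlation of log2(normalized count + 1). The enzymes themselves and all genes of the pathway and marker lists were left out of this search. The correlations are given as a description because the libraries share groups. *Gal3st2c* was most like *Reg4* (r = 0.993), *Add3* (0.979) and *St3gal5* (0.979). *B3gnt7* was most like *Krt36* (0.992), *Uggt1* (0.986) and *Hspa5* (0.982), and *Fut2* was most like *Arpin* (0.983) and *Sec13* (0.977). *C1galt1* was most like *Tlr4* (0.981), and *C1galt1c1* like *Slc12a2* (0.978). *Gcnt3* was most like *Cdh19* (0.973), *B3gnt6* like *Chrnb4* (0.968) and *Gal3st1* like *Nek3* (0.963). *Gal3st2* was most like *Snx13* (0.962) and *Gal3st2b* like *Lrrc19* (0.918). These paralogs could not be matched to each other, because the enzymes were left out of the search.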

How the data were processed

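The deposited signal values are read counts per gene divided by 1 factor per library by the authors. The submitters' processing notes name GRCm39, HISAT2 (2.2.1), SAMtools (1.13), HTSeq (1.99.2) and DESeq2 (1.40.2). The paper names another version of DESeq2, HISAT2 or STAR, and 2 sequencing platforms, not given per library. Neither the strand setting of the counter nor its annotation is given in the sources used here. A single factor per library leaves changes in tissue makeup in the values. All values were whole multiples of 1 step per library (100% within 0.05), which gave back the reads.

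Differences were computed in R (4.3.3) with limma (3.58.1), fitted to log2 values after adding 1 to each normalized count. A variance trend was used and all 3 groups shared 1 fit. The 16781 genes averaging 10 or more were tested, with Benjamini-Hochberg adjustment over all of them and calls at adjusted p under 0.05. On the recovered reads edgeR (4.0.16) called 7629, 5128 and 177 genes and DESeq2 (1.42.0) 7981, 5784 and 1236 in the 3 comparisons (non-transferred against control, transferred against non-transferred, transferred against control), where limma called 7641, 5240 and 268. The code was tested on simulated data. The members, gene lists and marker lists were chosen with earlier results of these data known. The absorptive colonocyte list is given without 1 marker, which is not reported here. Pathway genes named were, per role, up to 4 called in non-transferred against control colon with the smallest adjusted p and a mean of at least 50 in the higher group. GENCODE on GRCm39 named 99.2% of gene identifiers. Same-numbered libraries of different groups did not all deviate together (r from -0.10 to 0.39), so numbers were not used as pairs. Other settings tried were 2 pseudocounts, 2 filters, TMM scaling, no variance trend, 2 groups only, the study's threshold, a replicate block, leaving out each library and, added after seeing the data, scaling to the epithelial markers.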

Additional observations from a re-analysis of the deposited data

Results flagged for a closer look

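In 33 genes examined, 10 of them the mucin enzymes, 4 had a transferred library far from the other 4. The rule was a gap to the nearest library above 0.71 of the group's range in normalized counts, not on the log2 scale. Chance flags about 1 in 20 groups, but the genes share the same transferred libraries, so their flags are not independent. *C1galt1* was lowest in transferred replicate 5, at 1981 normalized counts against 2694 for the nearest library. *C1galt1c1* was also lowest in replicate 5, at 822 against 1034. *Slc26a1* was highest in replicate 5, at 1097 against 249. *Gcnt3* was highest in replicate 2, at 8691 against 6581. So 3 of the 4 concern transferred replicate 5, the library that also held the least *Muc2*. Without it, *C1galt1* was -0.53 on the log2 scale against non-transferred colon and 0.54 against control, in place of -0.62 and 0.45. The cause was not tested.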

How the results depend on the processing

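Counts for transferred against control colon were the least stable. In that comparison 4 pathway genes were called, against 2 with no filter, 2 with edgeR, 17 with DESeq2, 1 with only the 2 groups, 16 with the study's threshold and 1 scaled to the epithelial markers. Over all genes the 268 became 177 with edgeR, 1236 with DESeq2, 23 with only the 2 groups, 145 without the variance trend, 1663 with the study's threshold and 50 with epithelial scaling. With the replicate block they became 16 and 930, although the labels do not say that the numbers pair libraries. Leaving out 1 library gave 1 to 17 pathway genes and 11 to 831 genes in all. These were 17 and 831 without transferred replicate 5, 7 and 692 without transferred replicate 2, and 1 and 11 without control replicate 2. They were 2 and 45 without control replicate 1, 1 and 49 without control replicate 3, 2 and 171 without non-transferred replicate 3, 1 and 19 without transferred replicate 1, and 1 and 83 without transferred replicate 3 or 4. For transferred against non-transferred colon all genes called ranged from 3078 (without non-transferred replicate 3) to 5267, with 3336 without non-transferred replicate 4, and pathway genes from 19 to 27. For non-transferred against control colon they ranged from 6029 to 7972 and from 38 to 50. Epithelial scaling turned the split over all genes from 3805 higher and 3836 lower into 1926 and 4282, and from 2860 and 2380 into 3235 and 755 for transferred against non-transferred colon. None of the members called reversed under any setting. Those called numbered 6 or 7, 3 to 7 and 0 to 4 in the 3 comparisons, the 3 without non-transferred replicate 3 (4 without replicate 4). For transferred against control colon under 2 members were called with edgeR (1), without the variance trend (1), with epithelial scaling (1), with only the 2 groups, and without control replicates 1, 2 or 3, non-transferred replicate 3 or transferred replicates 1, 3 or 4. The causes were not tested. Depth limits *Gal3st2c* in non-transferred colon, with 12 reads over 3 libraries.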
